A study of Mus musculus with 4 samples.

Results

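The genes described here are 10 classical, type II and related cadherins (Cdh2, Cdh4, Cdh6, Cdh7, Cdh8, Cdh9, Cdh10, Cdh11, Cdh12 and Cdh13), taken by name from the 43348 genes of the count matrices. Single-cell RNA-seq was done on TdTomato-positive cells sorted from the frontal cortex and the hippocampus of mice at postnatal days 18 to 20. WT mice carried Nkx2.1-Cre and the Ai14 reporter with intact Grin1, and Grin1-null mice carried the same Cre and reporter with floxed Grin1 alleles, which removes the obligatory subunit of NMDA receptors from the Cre lineage. Each region was sampled in 3 WT and 2 Grin1-null libraries, 10 libraries in all, of both sexes. In every group Ai14 marks all descendants of cells that expressed Nkx2.1, which is active in progenitors of the medial ganglionic eminence, and the sort also held glia and glutamatergic cells; blockers of activity and transcription were present during dissociation in all of them. Replicate 1 of each group used the v2 kit and the other replicates the v3 kit, so kit and replicate cannot be told apart.

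Cadherins are calcium-dependent adhesion proteins that join neighbouring membranes by binding mostly to like molecules. The classical type I members and the type II members bind catenins inside the cell and through them the actin cytoskeleton. In the brain they take part in the sorting of neurons, the choice of partners and the stability of synapses, and different neurons carry different combinations of them.

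The libraries held between 181 and 4600 cells. The cortex libraries held 1277, 3851 and 3960 cells in WT and 181 and 2898 cells in Grin1-null mice. The hippocampus libraries held 2221, 4600 and 3159 cells in WT and 404 and 4436 cells in Grin1-null mice. Total depth ranged from 1488601 UMIs (unique molecules) in Grin1-null cortex replicate 1 to 47338167 UMIs in Grin1-null hippocampus replicate 2. WT hippocampus replicate 2 stood apart with a median of 1479 UMIs per cell, against 2903 to 9508 in the other libraries. Its SST cells lay for 63.25% in cluster 9, a shallow cluster, and for 0% in clusters 11 and 16, and 99.4% of its NGFC cells lay in cluster 18. Cluster 9 reached 5 of 7 SST and 6 of 7 PVALB markers with none among its leading genes, so its place in the SST class is in doubt; without it the members called between classes were 7, 6 and 5, as with it. Grin1-null cortex replicate 1 stood apart by its 181 cells. Pairs of libraries shared 0 to 12 barcodes, and the share of the smaller library was at most 0.552%, 1 of 181 barcodes.

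Cells were grouped into 35 clusters without using any cadherin superfamily gene. The interneuron clusters were SST-like, PVALB-like, NGFC-like (neurogliaform) or TH-like by their markers, and are written without the suffix. TH cells were counted with the SST class, as the paper pooled them. The TH cluster, cluster 12, reached 4 of 4 TH and 6 of 7 PVALB markers and not the 3 markers needed for SST. Its place in the SST class is thus a choice that bears on differences between PVALB and SST cells. Only the runs with the largest cluster of each class left it out whole. Levels are CPM, UMIs of a gene scaled to a common UMI total, of the summed cells of a library and class or cluster, and a gene was called where edgeR's adjusted p was under 0.01 with a log2 change of at least 0.144.

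Grin1 was read first, as the check of the genotype labels. In SST cells Grin1 was at 153, 254 and 233 CPM in WT cortex and at 38.0 and 27.9 CPM in Grin1-null cortex. In the hippocampus Grin1 in SST cells was at 120, 174 and 158 CPM in WT and at 21.3 and 21.7 CPM in Grin1-null mice. Every Grin1-null library lay under every WT library, in the PVALB and NGFC classes too, where the highest Grin1-null value was 37.7 CPM and the lowest WT value 102 CPM. The log2 differences ran from −2.10 in cortical NGFC cells, a value without a test, to −2.85 in hippocampal PVALB cells. With edgeR's adjusted p between 0.0223 and 0.958 in the 5 tests, Grin1 itself did not pass the threshold, and a difference of this size was therefore not called here. Which exons the floxed allele loses is not given in the sources used here.

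Cdh2, N-cadherin, is a type I member found at many synapses. In SST cells of the 6 WT libraries Cdh2 was at 53.1 CPM in the lowest, 72.8 CPM at the median and 87.6 CPM in the highest library. In PVALB cells Cdh2 was at 24.5, 47.9 and 80.2 CPM, and in NGFC cells at 65.7, 83.5 and 127 CPM, in the same order of lowest, median and highest. NGFC and SST cells overlapped, and PVALB cells tended to be lowest with ranges that touched the others. Among interneuron clusters Cdh2 was highest in SST cluster 16, at 82.8 to 303 CPM with a median of 181 CPM over 5 WT libraries. Cluster 16, led by Crh and Tac2, reached 4 of 7 SST and 4 of 4 TH markers with no SST marker among its leading genes, and at resolution 1.4 the cluster led by the same genes was named TH. NGFC cluster 18 was next, at 122 to 137 CPM over 3 WT libraries, and this range lay inside that of cluster 16. Those libraries held 17, 514 and 35 cells of cluster 18, in WT cortex replicate 2 and WT hippocampus replicates 2 and 3. The cortex sum was 14573 UMIs, and most cells came from the shallow WT hippocampus replicate 2. SST cluster 24, led by Chodl, was near the bottom at 2.26 to 21.3 CPM over 4 WT libraries, and PVALB cluster 32 lay there too at 0 to 20.6 CPM over 3. The SST class thus spanned both ends of the Cdh2 order, and clusters 24 and 32 overlapped each other. The 3 WT libraries of cluster 32, all from cortex, held 10, 11 and 18 of its cells, so its values here and below rest on small sums.

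Cdh4, R-cadherin, is a type I member that can pair with N-cadherin. Cdh4 was at 15.8 CPM in the lowest, 32.5 CPM at the median and 40.5 CPM in the highest WT library of SST cells. In PVALB cells Cdh4 was at 7.85, 9.77 and 14.8 CPM, and in NGFC cells at 0, 1.60 and 4.61 CPM. The 3 classes did not overlap over the WT libraries. Within the SST class, Cdh4 lay at 35.8 to 42.7 CPM in cluster 24, where Cdh2 was low, and TH cells lay lowest at 0 to 15.8 CPM. Among PVALB clusters, Cdh4 in cluster 32 lay at 30.9 to 103 CPM over 3 WT libraries, above cluster 1 at 7.52 to 15.7 CPM and overlapping cluster 26 at 0 to 36.6 CPM. The cluster 32 sums held 10 to 18 cells each, and their Cdh4 levels are few UMIs.

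The type II members Cdh7, Cdh8, Cdh9 and Cdh10 each had their highest median among interneuron classes in SST cells. Cdh7 was at 11.04, 36.5 and 69.9 CPM (lowest, median, highest WT library) in SST cells, at 8.76, 16.8 and 33.6 CPM in PVALB cells and at 0, 1.93 and 4.81 CPM in NGFC cells. SST and PVALB cells overlapped across libraries for Cdh7, and NGFC cells lay under both. SST cluster 3 held the highest pooled Cdh7 level, 139.9 CPM, with WT libraries from 11.5 to 195 CPM, and the TH cluster and Chodl cluster 24 stayed under 8 CPM in each WT library. Among PVALB clusters, cluster 1 lay at 13.5 to 37.5 CPM and cluster 26 at 0 to 9.16 CPM, without overlap.

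Cdh8 and Cdh9 are known for steering bipolar cell axons to separate layers of the retina, and Cdh9 also for the mossy fibre synapses of the hippocampus. Cdh8 was at 23.4, 35.9 and 72.0 CPM in SST cells, at 0, 15.7 and 19.6 CPM in PVALB cells and at 7.66, 15.4 and 26.1 CPM in NGFC cells. Cdh9 was at 27.9, 39.1 and 66.6 CPM in SST cells, at 7.13, 26.7 and 34.7 CPM in PVALB cells and at 7.51, 9.96 and 16.4 CPM in NGFC cells. For both genes neighbouring classes overlapped over libraries, apart from SST and PVALB cells for Cdh8 and SST and NGFC cells for Cdh9. Cdh8 differed among PVALB clusters, at 41.1 to 61.9 CPM in cluster 32, in sums of 10 to 18 cells, and 0 to 5.67 CPM in cluster 26. Cdh9 was highest in SST cluster 7, at 56.8 to 109 CPM over 6 WT libraries, a range that overlapped SST clusters 3 and 9. SST cluster 11 lay at 1.75 to 28.6 CPM and cluster 24 at 0 to 5.27 CPM for Cdh9, both without overlap with cluster 7.

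Cdh10 was at 19.4, 27.5 and 39.6 CPM in SST cells, at 5.84, 16.3 and 17.8 CPM in PVALB cells and at 7.22, 12.7 and 15.4 CPM in NGFC cells. SST cells lay above the other classes for Cdh10, and PVALB and NGFC cells overlapped. Its medians over WT libraries in interneuron clusters ran from 8.16 CPM in PVALB cluster 26 to 32.2 CPM in SST cluster 9 and 31.5 CPM in SST cluster 16, which overlapped at 0 to 103 and 15.4 to 58.1 CPM.

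Cdh11, first described in bone cells as OB-cadherin, did not order the classes: its WT libraries spanned 6.66 to 28.6 CPM in SST, 2.92 to 25.3 CPM in PVALB and 1.28 to 27.7 CPM in NGFC cells. The TH cluster was low for Cdh11, at 0 to 4.92 CPM over 5 WT libraries. Cdh6, K-cadherin, was the lowest of the 10 members in interneurons in the sense that it never passed the filter on low counts: no interneuron class of any WT library exceeded 2.41 CPM, and its highest pooled cluster was an oligodendrocyte precursor cluster at 9.87 CPM.

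Cdh12 varied among the clusters of the SST and PVALB classes. It was at 11.3, 24.2 and 35.2 CPM in SST cells, at 21.5, 31.8 and 89.1 CPM in PVALB cells and at 15.3, 25.3 and 57.7 CPM in NGFC cells, and the classes overlapped. PVALB cluster 26 lay at 66.8 to 146.5 CPM with a median of 101 CPM over 6 WT libraries, above PVALB cluster 1 at 11.8 to 50.4 CPM, while NGFC clusters 2 and 18 overlapped at 15.7 to 54.9 and 38.1 to 137 CPM. The WT libraries of cluster 18 held 17, 514 and 35 of its cells. No Cdh12 UMI was seen in the 249 WT cells of SST cluster 24, which allows up to 1.03 CPM. SST cluster 11 and the TH cluster had pooled levels of 63.9 and 58.4 CPM, and their libraries split by region.

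Cdh13, T-cadherin, is held in the membrane by a lipid anchor and has no cytoplasmic tail to bind catenins, so it is related to the type I and type II members rather than being either. Cdh13 was at 162, 251 and 299 CPM in SST cells, at 92.7, 107 and 256 CPM in PVALB cells and at 3.28, 11.7 and 14.1 CPM in NGFC cells. NGFC cells lay far under both other classes, which overlapped through WT hippocampus replicate 3, the highest PVALB library. PVALB cells split by cluster: clusters 1 and 32 lay at 107 to 303 CPM and 219 to 284 CPM, and cluster 26 at 0 to 36.6 CPM. PVALB cluster 26, low in Cdh13, Cdh8 and Cdh7, was thus the PVALB cluster with the most Cdh12.

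**Figure D1:**
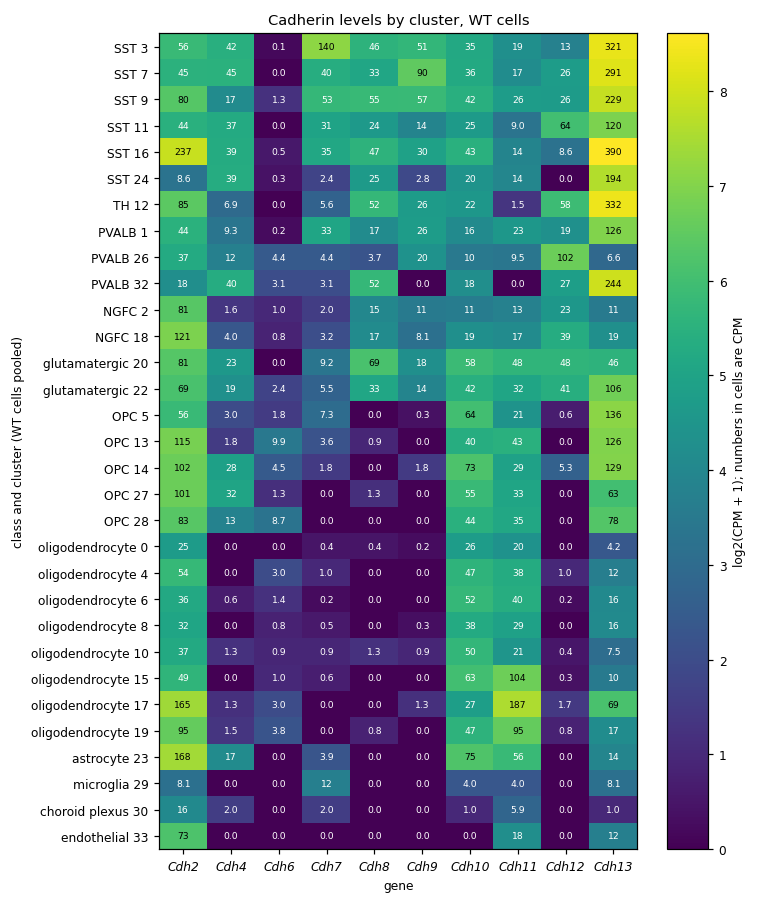
Level of each cadherin (columns) in each of the 31 named clusters (rows) of pooled WT cells, with log2(CPM + 1) as colour and CPM printed in the cells; columns are to be read down, since levels were not set per length between genes. Among interneuron clusters Cdh2 peaks in SST cluster 16 and Cdh12 in PVALB cluster 26, and Cdh13 is low in both NGFC clusters and PVALB cluster 26.

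The share of cells with a UMI followed the same order for Cdh13. Of 4939 WT SST cells (median 6185 UMIs), 57.2% had a Cdh13 UMI, against 43.9% of 1596 PVALB cells (median 6910.5 UMIs), 4.43% of 1333 NGFC cells (median 3463 UMIs) and, as background, 0.595% of 168 choroid plexus cells (median 4327.5 UMIs). Thinned to 1000 UMIs per cell the Cdh13 shares were 22.1%, 11.4% and 1.01% in the interneuron classes, and 0 of 139 choroid plexus cells had a UMI, which allows a share of up to 2.16%. At this depth the thinned NGFC share of Cdh13 could not be told from background. For Cdh7 the shares were 19.4% of SST cells, 15.5% of PVALB cells, 1.05% of NGFC cells and, as background, 0.173% of 5795 oligodendrocytes (median 3550 UMIs), and 5.01%, 2.85%, 0.423% and 0.0194% after thinning. For Cdh12 they were 15.3%, 15.6%, 10.7% and 0.173%, and 3.51%, 3.68%, 2.96% and 0.0194% after thinning. UMIs of at least 3 members were in 35.3% of SST cells, 21.3% of PVALB cells and 3.98% of NGFC cells, and as background in 0 of 168 choroid plexus cells, which allows up to 1.79%. The means were 2.02, 1.55, 0.708 and 0.167 members per cell, or 0.524, 0.320, 0.198 and 0.0360 after thinning.

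Glia were not tested against interneurons. Pooled WT astrocytes had Cdh2 at 168 CPM, Cdh10 at 75.0 CPM and Cdh11 at 55.6 CPM, and no UMI of Cdh8, Cdh9 or Cdh12, which allows up to 3.88 CPM. Over 6 WT libraries of astrocyte cluster 23 Cdh2 lay at 118 to 337 CPM, Cdh10 at 0 to 115 CPM and Cdh11 at 0 to 70.1 CPM, and each range overlapped the libraries of an interneuron class. Oligodendrocyte precursors had Cdh13 at 122 CPM and Cdh10 at 59.6 CPM. Oligodendrocyte cluster 17 had Cdh11 at 187 CPM and Cdh2 at 165 CPM. Glutamatergic cells had Cdh8 at 38.3 CPM, Cdh11 at 34.6 CPM and Cdh13 at 97.4 CPM. The type II members Cdh8, Cdh9 and Cdh12 had pooled levels of 0.241 to 1.22 CPM in oligodendrocytes and their precursors. In each neuronal class their pooled levels were 10.3 CPM or more. Single WT libraries of oligodendrocyte cluster 10 reached 26.7 CPM for Cdh8 and 18.1 CPM for Cdh12. The median over the 6 WT libraries of cluster 10 was 0 CPM for both genes, so these highest values do not describe the cluster. A single WT library of oligodendrocyte cluster 17 reached 15.8 CPM for Cdh9.

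The class differences were tested over the 6 WT libraries with the library as a block, on 10201 genes, 9 members among them (Cdh6 did not pass the filter). Between PVALB and SST cells 7 of 9 members were called, 7 lower and 0 higher in PVALB cells, against 22.7% of all tested genes called. Members' median log2 difference was −1.04 against −0.005 over all genes. Cdh4 was lower by a log2 of −1.75 (SE 0.18, edgeR adjusted p 2.68e-07, lower in 6 of 6 libraries), Cdh8 by −1.36 (SE 0.21, edgeR adjusted p 4.46e-05, 6 of 6) and Cdh7 by −1.06 (SE 0.12, edgeR adjusted p 1.24e-06, 6 of 6). Cdh13 was lower by −1.05 (SE 0.16, edgeR adjusted p 4.56e-05, 5 of 6), Cdh10 by −1.04 (SE 0.14, edgeR adjusted p 7.54e-06, 6 of 6), Cdh9 by −0.75 (SE 0.20, edgeR adjusted p 0.00605, 5 of 6) and Cdh2 by −0.74 (SE 0.14, edgeR adjusted p 2.53e-04, 5 of 6). Cdh11 and Cdh12 differed by 0.24 and 0.21 (edgeR adjusted p 0.477 and 0.612) and were not called. The Cdh9 difference was not called without WT cortex replicate 1, 2 or 3 (edgeR adjusted p 0.0161, 0.0135 and 0.102; range over all alternatives 1.64e-07 to 0.105). Classes set cell by cell turned the sign of Cdh2 to 0.041 (edgeR adjusted p 0.876; range 6.5e-10 to 0.876) and left Cdh13 at −0.53, not called (edgeR adjusted p 0.116; range 6.16e-28 to 0.116). With only the largest cluster of each class Cdh13, Cdh9 and Cdh2 were not called (edgeR adjusted p 0.0124, 0.0255 and 0.318), and DESeq2 did not call Cdh9 (adjusted p 0.0377). Without the block Cdh13, Cdh9, Cdh2 and Cdh7 were not called (edgeR adjusted p 0.0126, 0.105, 0.136 and 0.157).

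Between NGFC and SST cells 6 of 9 members were called, all lower in NGFC cells, against 23.9% of all genes, with medians of −1.63 for members and 0.008 for all genes. Cdh13 was lower by −4.49 (SE 0.26, edgeR adjusted p 4.53e-11, 6 of 6 libraries), Cdh7 by −3.97 (SE 0.24, edgeR adjusted p 7.65e-11, 6 of 6) and Cdh4 by −3.87 (SE 0.31, edgeR adjusted p 4.69e-09, 6 of 6). Cdh9, Cdh8 and Cdh10 were lower by −1.97, −1.63 and −1.15, each in 6 of 6 libraries, with edgeR adjusted p between 1.14e-05 and 3.4e-05. Cdh2 was at 0.26 (edgeR adjusted p 0.149, higher in 5 of 6), Cdh12 at 0.22 (edgeR adjusted p 0.64, higher in 3 of 6) and Cdh11 at −0.03 (edgeR adjusted p 0.962, higher in 3 of 6), and none of these was called. Between NGFC and PVALB cells 5 of 9 members were called, against 23.6% of all genes, with medians of −0.27 and 0.02. Cdh2 was higher in NGFC cells by 1.003 (SE 0.16, edgeR adjusted p 5.27e-05, 6 of 6), a call lost without the block (0.96, edgeR adjusted p 0.0113) and with classes of single cells (0.55, edgeR adjusted p 0.0153; range over alternatives 3.76e-12 to 0.0153). Lower in NGFC cells were Cdh13 by −3.44, Cdh7 by −2.91 and Cdh4 by −2.12 (edgeR adjusted p 1.42e-08 to 3.72e-04, 6 of 6 each) and Cdh9 by −1.22 (edgeR adjusted p 0.00662, 5 of 6). Without WT cortex replicate 1 or 2 or WT hippocampus replicate 1 or 3 the Cdh9 call was lost (edgeR adjusted p 0.0106, 0.0371, 0.0117 and 0.0327; range over alternatives 7.57e-07 to 0.042), as it was without the block (−1.23, edgeR adjusted p 0.014) and with the largest clusters (−1.115, edgeR adjusted p 0.042). Without WT hippocampus replicate 2, the shallow library, the members called were 7, 6 and 5 of 9, as with it.

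**Figure D2:**
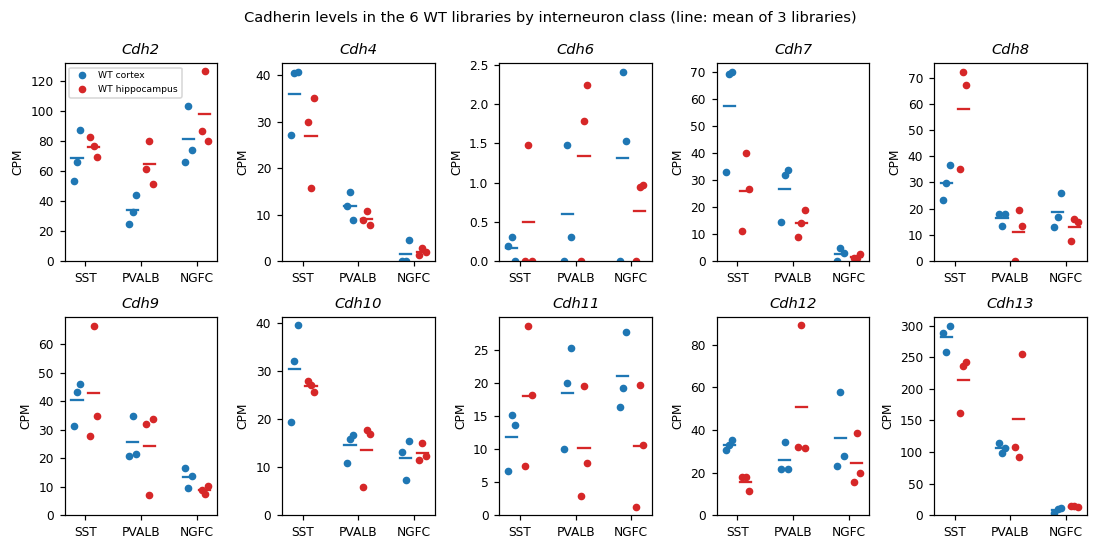
CPM of each cadherin (panels, each with its own axis) in SST, PVALB and NGFC cells, each point 1 of the 6 WT libraries, coloured by region, with a line at the mean of the 3 libraries. SST cells sit above NGFC cells for Cdh4, Cdh7 and Cdh13 in every library.

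Other genes of the pathway came from lists. Of 9 further classical and type II cadherins 3 were tested: Cdh20 was higher in PVALB than SST cells by 1.39, in NGFC than SST cells by 2.71 and in NGFC than PVALB cells by 1.33, and Cdh15 and Cdh22 were lower in PVALB than SST cells by −1.34 and −1.88. Of all tested genes 22.7%, 23.9% and 23.6% were called between PVALB and SST, NGFC and SST, and NGFC and PVALB cells, to be read beside the counts of each list. Of 13 genes for catenins and cytoplasmic partners 12 were tested, and Ctnna3 did not pass the filter. Between PVALB and SST cells 6 were called: Ctnna1 at 0.80 and Pkp4 at 0.67 were higher in PVALB cells, and Ctnnd2 at −0.35, Mllt4 at −0.43, Vcl at −0.86 and Jup at −0.98 were lower. Between NGFC and SST cells 8 were called: Pkp4 at 1.45 and Ctnnb1, beta-catenin, at 0.64 were higher in NGFC cells, and Ctnna2 at −0.55, Ctnnbip1 at −0.59, Arvcf at −1.11, Ctnnd2, delta-catenin, at −1.35, Vcl, vinculin, at −1.40 and Jup, plakoglobin, at −1.73 were lower. Between NGFC and PVALB cells 6 were called: Pkp4 at 0.78 and Ctnnb1 at 0.50 were higher in NGFC cells, and Ctnnbip1 at −0.51, Ctnna2 at −0.69, Ctnnd2 at −0.99 and Arvcf at −1.15 were lower. All 9 genes for adhesion partners and cleavage were tested. Between PVALB and SST cells 5 were called: Pvrl3, a nectin, at 1.01 was higher in PVALB cells, and Psen2 at −0.57, Ptprf at −0.58, Adam10, which sheds the outer part of cadherins, at −0.71 and Fgfr1, a receptor that N-cadherin can bind, at −0.75 were lower. Between NGFC and SST cells 4 were called: Adam10 at 0.99 was higher in NGFC cells, and Psen2 at −0.77, Ptprf at −1.47 and Fgfr1 at −2.08 were lower. Between NGFC and PVALB cells 4 were called: Adam10 at 1.70 was higher in NGFC cells, and Ptprf at −0.89, Fgfr1 at −1.33 and Pvrl3 at −2.11 were lower. The median log2 differences in these comparisons were 0.09, −0.39 and −0.51 for the catenin list and −0.10, −0.47 and −0.24 for the partner list.

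The regions were compared in WT cells over 3 libraries each. In SST cells 0 of 9 members were called by edgeR, against 0.0418% of 11974 genes, 3 members had an unadjusted p under 0.05, and DESeq2 called 0. In cortex Cdh7 lay at 33.1, 69.1 and 69.9 CPM in SST cells and in hippocampus at 11.04, 40.0 and 26.8 CPM, and Cdh12 at 30.5, 33.0 and 35.2 CPM against 17.9, 17.8 and 11.3 CPM. The 2 regions did not overlap for Cdh12 and overlapped for Cdh7. Log2 differences were −1.19 for Cdh7, −1.14 for Cdh12 and 0.91 for Cdh8, and those of the other 6 tested members ran from −0.48 for Cdh4 to 0.57 for Cdh11. With the replicate as a block, which matched kits, 2 of 9 members were called, against 3.01% of genes: Cdh7 by −1.27 (SE 0.22, edgeR adjusted p 0.00165) and Cdh12 by −1.18 (SE 0.24, edgeR adjusted p 0.00547), with Cdh8 at 0.87 (edgeR adjusted p 0.0164). Clusters 11 and 12, high in Cdh12, held 20.6% and 12.1% of SST cells in WT cortex and 7.82% and 7.62% in WT hippocampus, and cluster 9 held 8.97% and 39.6%. Without WT hippocampus replicate 2 the hippocampal shares were 18.0%, 16.1% and 8.84%, and the part of makeup in the class values was not tested. The sign of Cdh12 turned with only the largest SST cluster, cluster 3, to 0.65 without the block and 0.57 with it (edgeR adjusted p 0.724 and 0.505; range over all alternatives 0.00547 to 0.724), where Cdh7 was at −2.37 and −2.47, the latter called (edgeR adjusted p 8.72e-04).

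In PVALB cells 0 of 9 members were called by edgeR, against 0.0226% of 8853 genes, 2 had an unadjusted p under 0.05 (Cdh2 at 0.89, Cdh12 at 0.99), and DESeq2 called 0. The other 7 tested members ran from −0.87 for Cdh7 and Cdh11 to 0.54 for Cdh13. The replicate block called 0 of 9, against 0.791%. In NGFC cells 0 of 4 tested members were called by edgeR, against 0% of 7858 genes, 0 had an unadjusted p under 0.05, and DESeq2 called 0. The log2 differences there were 0.32 for Cdh2, −0.50 for Cdh12, −0.53 for Cdh8 and −0.94 for Cdh11. The replicate block called 0, against 0.127%.

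The direction of the region difference differed between classes for Cdh12. In PVALB cells Cdh12 lay at 21.8, 34.4 and 21.5 CPM in cortex and at 32.1, 89.1 and 31.4 CPM in hippocampus, higher in hippocampus in 3 of 3 replicates, though the groups overlapped. Tested directly, with library as a block and chosen after seeing the data, the PVALB minus SST difference of Cdh12 was larger in hippocampus by 2.12 (SE 0.32, edgeR adjusted p 3e-04), the sole member called, against 0.771% of 11022 genes. Without WT hippocampus replicate 2 the value was 1.66 (edgeR adjusted p 0.0242; range over alternatives 1.06e-11 to 0.99), no longer called. With only the largest cluster of each class it was −0.05, and the share of PVALB cells in cluster 26, where Cdh12 was highest, was 9.07% in WT cortex and 34.6% in WT hippocampus, or 19.5% without WT hippocampus replicate 2. By library it was 11.3%, 13.8% and 4.92% in cortex and 28.9%, 46.2% and 13.6% in hippocampus, which overlapped. The part of cluster makeup in the Cdh12 difference was not tested further. The same test called 0 of 9 members between NGFC and SST cells (edgeR, against 0.798% of genes; 2 with unadjusted p under 0.05; DESeq2 0) and 0 of 9 between NGFC and PVALB cells (edgeR, against 0.2%; 1 with unadjusted p under 0.05; DESeq2 0).

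To hold the cluster fixed, the regions were compared within each of 10 interneuron clusters with at least 2 libraries per region, over both genotypes with genotype as a term, a comparison added after the class values were seen. Members were called in 4 clusters. In SST cluster 3, 2 of 8 tested members were called, against 2.74% of genes. Cdh7 there lay at 115, 197, 105, 193 and 195 CPM in the 5 cortex libraries (Grin1-null first, then WT) and at 14.0, 31.5, 11.5, 62.9 and 25.1 CPM in the 5 hippocampus libraries. Cdh4 lay at 69.6, 78.0, 40.4, 49.6 and 52.9 CPM in cortex and at 16.0, 23.1, 24.3, 11.6 and 23.9 CPM in hippocampus. For both genes every cortex library lay above every hippocampus library. Cdh7 fell by 2.49 on the log2 scale from cortex to hippocampus (SE 0.36, edgeR adjusted p 4.22e-04, lower in 5 of 5 libraries) and Cdh4 by −1.52 (SE 0.24, edgeR adjusted p 7.84e-04, 5 of 5).

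In SST cluster 11, 2 of 8 members were called, against 0.768% of genes. Cdh12 lay at 58.6, 70.3, 56.5, 90.8 and 83.6 CPM in the cortex libraries and at 6.58, 18.7, 11.9 and 17.2 CPM in the 4 hippocampus libraries. Cdh7 lay at 35.1, 28.1, 31.3, 24.4 and 42.7 CPM in cortex and at 0, 4.99, 7.15 and 3.97 CPM in hippocampus. Neither gene overlapped between the regions in this cluster. The log2 differences were −2.25 for Cdh12 (SE 0.28, edgeR adjusted p 0.00127, lower in 4 of 4) and −2.82 for Cdh7 (SE 0.40, edgeR adjusted p 0.00231, lower in 4 of 4). Cdh7 was not called without Grin1-null cortex replicate 2 or WT hippocampus replicate 3 (edgeR adjusted p 0.0101 and 0.0171; range over alternatives 2.79e-08 to 0.128).

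In TH cluster 12, 1 of 6 members was called, against 0.0395% of genes. Cdh12 lay there at 75.4, 57.2, 88.6 and 70.8 CPM in the 4 cortex libraries and at 5.64, 9.73, 14.9 and 13.1 CPM in the 4 hippocampus libraries, without overlap. Its log2 difference was −2.69 (SE 0.30, edgeR adjusted p 6.28e-04, lower in 4 of 4), and the call was lost without Grin1-null cortex replicate 2 or Grin1-null hippocampus replicate 2 (edgeR adjusted p 0.1 and 0.0195; range over alternatives 1.81e-11 to 0.168). In SST cluster 7, 1 of 9 members was called, against 0.505% of genes. Cdh8 was at 24.3, 31.7, 10.5, 17.4 and 26.1 CPM in the 5 cortex libraries and at 75.7, 42.6, 99.2 and 72.0 CPM in the 4 hippocampus libraries. The hippocampus libraries all lay above the cortex libraries. Cdh8 was higher by 1.74 (SE 0.29, edgeR adjusted p 0.00596, 4 of 4), a call that 6 of 9 libraries could each remove: without Grin1-null cortex replicate 1 or 2, Grin1-null hippocampus replicate 2, WT cortex replicate 2 or 3, or WT hippocampus replicate 3 the edgeR adjusted p was 0.0199, 0.0152, 0.0367, 0.0316, 0.0159 and 0.0276 (range over alternatives 7.51e-07 to 0.0774).

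No member was called by edgeR in the other 6 clusters, and DESeq2 called 0 there too. The backgrounds were 0.0364% for PVALB cluster 1 (0 of 9 members, 2 with unadjusted p under 0.05), 0.0517% for NGFC cluster 2 (0 of 5, 2) and 0.0335% for SST cluster 9 (0 of 2, 0). They were 0.14% for SST cluster 16 (0 of 7, 4), 0.0398% for SST cluster 24 (0 of 5, 0) and 0.281% for PVALB cluster 26 (0 of 2, 0). In cluster 26 Cdh12 lay at 112, 119, 117 and 70.9 CPM in cortex libraries and at 95.3, 66.8, 146.5 and 85.3 CPM in hippocampus libraries, which overlapped. With only the WT libraries none of the called values passed (edgeR adjusted p 0.0517 to 0.168), with fewer libraries in the fit. The log2 differences there were −2.37 for Cdh7 and −1.28 for Cdh4 in cluster 3, −2.75 for Cdh7 and −2.40 for Cdh12 in cluster 11, −2.38 for Cdh12 in cluster 12 and 1.94 for Cdh8 in cluster 7. Whether a cluster holds the same subtypes in both regions cannot be told apart from a change within a subtype.

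**Figure D3:**
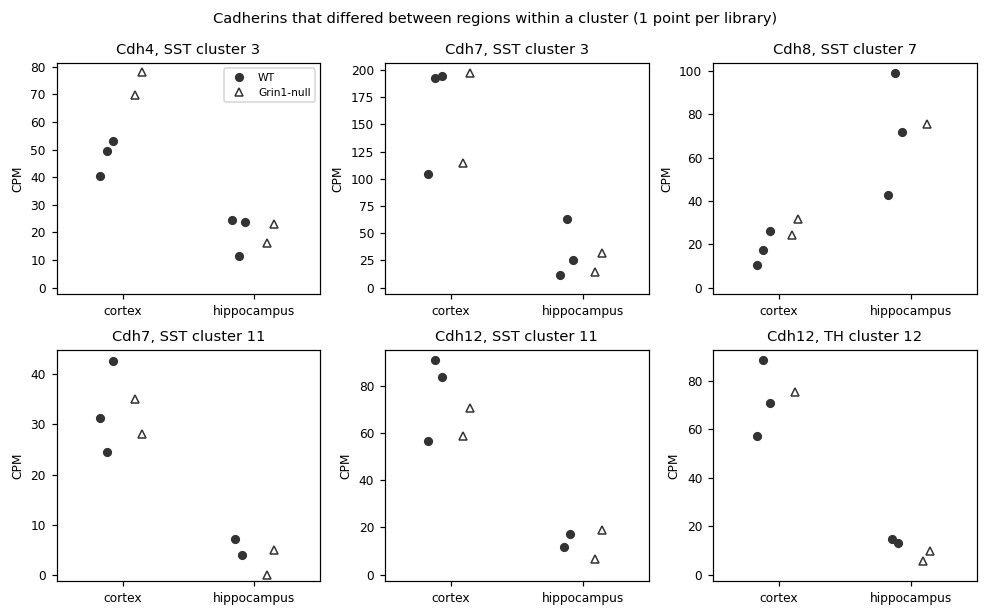
CPM of the members called between regions within clusters, each point a library, cortex and hippocampus side by side, with filled circles for WT and open triangles for Grin1-null libraries. In each of the 6 panels the cortex and hippocampus libraries do not overlap.

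Genotype was compared within each class and region. In SST cells 0 of 9 members were called in cortex (edgeR, against 0% of 12938 genes; 0 members with unadjusted p under 0.05; DESeq2 0) and 0 of 9 in hippocampus (edgeR, against 0%; 0; DESeq2 0). In NGFC cells 0 of 7 tested members were called in hippocampus (edgeR, against 0% of 9688 genes; 0; DESeq2 0), and the cortex had a value without a test, since Grin1-null cortex replicate 1 held 3 such cells. In PVALB cells 0 of 9 members were called in cortex (edgeR, against 0.0103% of 9702 genes; 1 with unadjusted p under 0.05; DESeq2 0) and 0 of 9 in hippocampus (edgeR, against 0%; 1; DESeq2 0). The interaction of genotype and region called 0 of 9 members in SST cells and 0 of 9 in PVALB cells (edgeR, against 0% of genes in each; 0 members with unadjusted p under 0.05; DESeq2 0). The members' median log2 difference was −0.226 in cortical and −0.032 in hippocampal SST cells, 0.292 and −0.041 in PVALB cells and 0.326 in hippocampal NGFC cells, against −0.018, −0.033, −0.004, −0.010 and −0.043 over all genes.

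The members with an unadjusted p under 0.05 were both in PVALB cells. Cdh4 there lay at 8.76, 10.7 and 7.85 CPM in WT hippocampus and at 32.1 and 21.9 CPM in Grin1-null hippocampus, and in cortex at 11.8, 14.8 and 8.85 CPM in WT and 22.0 and 18.0 CPM in Grin1-null mice. Every Grin1-null library lay above every WT library of its region for Cdh4. The replicate 1 sums were small, with 52 WT and 35 Grin1-null PVALB cells in hippocampus (342627 and 466794 UMIs), so these Cdh4 levels are few UMIs. The log2 differences were 1.49 in hippocampus (SE 0.45, edgeR adjusted p 1, higher in 2 of 2) and 0.73 in cortex (SE 0.39, edgeR adjusted p 1, 2 of 2). The PVALB clusters held different shares of the groups. Cluster 32, where Cdh4 was high in small WT sums, held 23.6% of PVALB cells in Grin1-null cortex and 3.02% in WT cortex, but 2.52% and 1.31% in hippocampus. Within PVALB cluster 1 Cdh4 lay at 40.0 and 24.3 CPM in Grin1-null hippocampus and at 13.5, 15.7 and 9.35 CPM in WT hippocampus. The WT libraries of cluster 1 spanned 7.52 to 15.7 CPM over both regions. With genotype as a term, Cdh4 in cluster 1 was higher in hippocampus than in cortex by 0.91 (edgeR adjusted p 0.774). No test across clusters was made. Cdh7 in cortical PVALB cells lay at 14.5, 31.8 and 33.6 CPM in WT and 6.28 and 14.4 CPM in Grin1-null mice, a log2 difference of −1.14 (SE 0.49, edgeR adjusted p 1, 2 of 2 under every WT library). The lower Grin1-null value rests on 30 cells and 318272 UMIs, and so on few Cdh7 UMIs. The other, 14.38 CPM, lay barely under the lowest WT library. Here too the groups differed in makeup: cluster 26, low in Cdh7, held 27.5% of PVALB cells in Grin1-null and 9.07% in WT cortex, and cluster 1 held 48.9% and 87.9%, and the part of this in the Cdh7 values was not tested. The share of cluster 26 was 30.5% in Grin1-null cortex replicate 2 and 3.33%, under the WT share, in replicate 1, the library with the lowest Cdh7. Cdh13 in hippocampal NGFC cells was high in Grin1-null replicate 1, at 57.4 CPM, and at 6.67 CPM in replicate 2, against 14.1, 14.1 and 12.5 CPM in WT.

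Paired by replicate number, Cdh12 was lower in Grin1-null than in WT cells in each SST pair, by −0.32 and −0.16 in cortex and −1.49 and −0.54 in hippocampus, and in each NGFC pair, by −1.26 in cortex and −1.03 and −0.90 in hippocampus. In PVALB cells its pairs went both ways, from −0.83 to 0.66. Cdh2 was lower in each SST pair, by −0.02 to −0.52, and in each NGFC pair, by −0.31 to −0.89. In PVALB cells Cdh2 ranged from −1.01 to 0.27. Cdh10 was higher in each NGFC pair, by 1.63 in cortex and 0.39 and 0.13 in hippocampus. In SST and PVALB cells the Cdh10 pairs went both ways. Classes of a library share their mice, so these pairs are not separate evidence. Makeup differed within pairs: in hippocampus replicate 2 cluster 18, the NGFC cluster with the higher medians of Cdh2 and Cdh12, held 99.4% of WT and 4.77% of Grin1-null NGFC cells, and cluster 9 held 63.25% and 8.203% of SST cells. The cluster 18 medians came from WT libraries with 17, 514 and 35 of its cells. In cortex replicate 2 cluster 24, low in Cdh2 and without a Cdh12 UMI in WT cells, held 11.1% of WT and 20.0% of Grin1-null SST cells. These SST shares went the other way in replicate 1. There cluster 24 held 5.28% of WT and 2.75% of Grin1-null SST cells in cortex. Cluster 9 held 2.74% of WT and 17.8% of Grin1-null SST cells in hippocampus replicate 1. In the other NGFC pairs cluster 18 held 12.2% and 7.14% in cortex and 2.26% and 3.13% in hippocampus. The part of makeup in the pair values was not tested. The fit with the replicate as a block gave −1.13 for Cdh7 and 0.89 for Cdh10 in cortical PVALB cells (edgeR unadjusted p 0.00781 and 0.0472). For Cdh4 in hippocampal PVALB cells it gave 1.24 (edgeR unadjusted p 0.0139). The edgeR adjusted p of Cdh7, Cdh10 and Cdh4 there was 0.458, 0.694 and 0.567. With the replicate as a block Cdh12 in hippocampal NGFC cells was at −1.02 (unadjusted p 0.0202, edgeR adjusted p 0.319; range over alternatives 0.319 to 1) and in hippocampal SST cells at −0.72 (unadjusted p 0.0544), and no member was called.

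**Figure D4:**
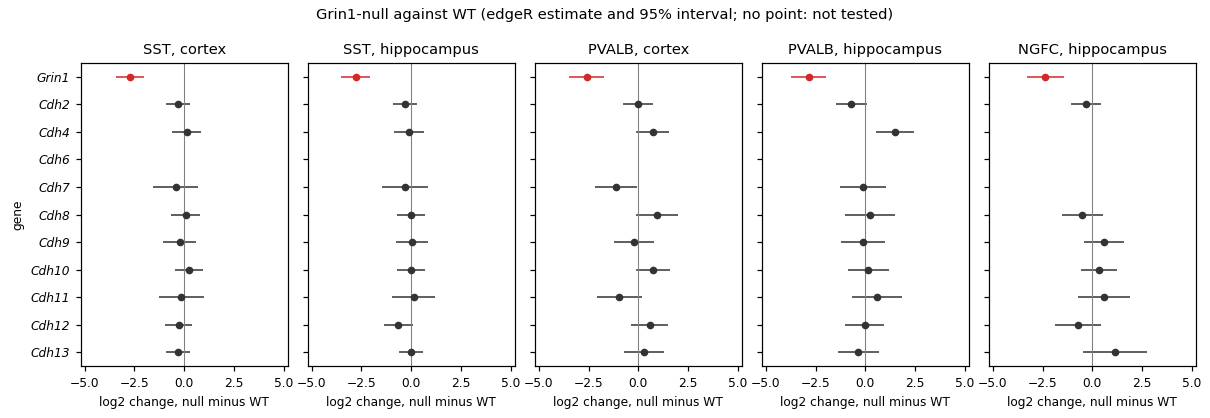
Log2 difference (Grin1-null minus WT) of Grin1 (red) and each cadherin by class and region, as the edgeR estimate with its 95% interval, and no point for a gene not tested. The intervals of Grin1 lie under 0, and those of the cadherins span 0 except for Cdh4 in hippocampal PVALB cells and Cdh7 in cortical PVALB cells.

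By Pearson correlation of log2(CPM + 1) over the 31 named clusters (pooled WT cells, among 12295 genes; clusters share libraries and depth), the pattern nearest Cdh7 was that of Nnmt (0.862) and Calb1 (0.847), and nearest Cdh4 that of Ptpn5 (0.897) and Ctnnd2 (0.891). For Cdh8 they were A330008L17Rik (0.968) and Map2k4 (0.956), for Cdh9 Fam43b (0.914) and Mpped1 (0.902), and for Cdh12 Kcnj6 (0.928) and Scrt2 (0.907). For Cdh13 they were Grik3 (0.834) and Satb1 (0.828), for Cdh10 8430419L09Rik (0.832) and Tmem180 (0.829), and for Cdh11 Usp38 (0.809) and Neo1 (0.786). For Cdh2 they were A830082K12Rik (0.716) and Eftud2 (0.707), and for Cdh6, near its floor, Fam206a (0.764) and Smarca5 (0.754). Among the 45 pairs of members correlations ran from −0.419 (Cdh8 with Cdh11) to 0.828 (Cdh8 with Cdh9), with a median of 0.274.

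Of the members 4 (Cdh6, Cdh9, Cdh10 and Cdh12) lie on chromosome 15 and 3 (Cdh8, Cdh11 and Cdh13) on chromosome 8 of GRCm38. RefSeq promoters, from 250 bases before to 50 after the start in GRCm38.p6, were matched for 6 members: Cdh6, Cdh7, Cdh8, Cdh9, Cdh10 and Cdh12. The homeodomain core TAATTA, searched on both strands, was in 5.29% of all 32851 promoters and in none of the 6, and the GC box GGGCGG, in 35.7% of promoters, was in those of Cdh6 and Cdh8. The 3 shown belong to members whose level differed by region; capitals mark the GC box, and the Cdh7 and Cdh12 windows lie inside the annotated genes. Their strands and positions are chr1:109982650-109982949 (plus) for Cdh7, chr8:99416422-99416721 (minus) for Cdh8 and chr15:21111202-21111501 (plus) for Cdh12.
Cdh7: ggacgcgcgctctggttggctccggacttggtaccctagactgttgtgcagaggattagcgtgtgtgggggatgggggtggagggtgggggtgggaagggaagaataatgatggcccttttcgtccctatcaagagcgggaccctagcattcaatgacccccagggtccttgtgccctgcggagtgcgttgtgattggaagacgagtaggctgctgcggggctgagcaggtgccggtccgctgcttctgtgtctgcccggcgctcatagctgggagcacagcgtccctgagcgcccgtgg
Cdh8: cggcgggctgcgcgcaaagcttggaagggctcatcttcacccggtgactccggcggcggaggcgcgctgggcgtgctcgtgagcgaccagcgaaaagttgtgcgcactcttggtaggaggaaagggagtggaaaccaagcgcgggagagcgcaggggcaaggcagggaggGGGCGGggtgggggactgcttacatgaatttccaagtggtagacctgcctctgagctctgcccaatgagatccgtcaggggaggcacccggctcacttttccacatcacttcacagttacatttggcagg
Cdh12: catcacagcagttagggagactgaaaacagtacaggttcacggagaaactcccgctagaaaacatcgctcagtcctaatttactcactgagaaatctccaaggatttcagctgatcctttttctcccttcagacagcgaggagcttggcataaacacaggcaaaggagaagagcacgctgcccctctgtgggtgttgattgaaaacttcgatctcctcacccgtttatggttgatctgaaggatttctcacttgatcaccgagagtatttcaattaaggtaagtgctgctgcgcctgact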

How the data were processed

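TdTomato-positive cells were captured with 10x kits by the authors, and the deposited matrices hold raw UMI counts per gene and cell. Per the submitters' notes Cell Ranger 2.1.1 was used with mm10, and the matrix headers give 3.0.2. The 4 deposited matrices pool libraries, which were told apart by barcode suffix and matched to replicates by cell number. Filters on detected genes (200 to 6000) and on the mitochondrial share of UMIs (under 30%) left 26201 of 26987 cells. They took out 11.0% and 8.59% of cells in replicate 2 of Grin1-null cortex and hippocampus, and 2.21% and 0.743% in replicate 1. WT libraries lost between 0% and 0.76%, so the loss differed by genotype. Seurat 5.3.0 integrated the 4 deposited matrices (2000 features without cadherin superfamily genes, 25 dimensions, resolution 1.0). Libraries within a matrix were not integrated with each other. Scrublet marked 0.943% of cells, left out as an alternative only. Counts were summed per library and class of at least 10 cells and tested with edgeR 4.0.16 (quasi-likelihood, TMM, low-count filter, Benjamini-Hochberg) and, as an alternative, DESeq2 1.42.0, in R 4.3.3. Scripts were tested on simulated data. Replicate numbers, matched by cell number, were used to pair WT regions: deviations of same-numbered libraries correlated at 0.704, 0.635 and 0.405 in SST, 0.550, 0.566 and 0.329 in PVALB and 0.562, 0.449 and 0.192 in NGFC cells. Between genotypes they correlated at 0.262 in cortical and 0.264 in hippocampal SST cells, and at 0.257 and 0.216 in PVALB cells. In hippocampal NGFC cells the value was 0.287. Kit may enter these correlations, since it went with replicate. P-values measure the spread between these libraries. Members and lists were chosen with earlier results of these data known; the text was to give all 10 members in every comparison, here by count or range where not called, with the genes of other lists that passed and the 2 nearest genes of each member. Symbols that name the same gene were counted as 1.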

Additional observations from a re-analysis of the deposited data

Results flagged for a closer look

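The difference of Cdh12 between PVALB and SST cells was larger in the hippocampus than in the cortex by a log2 of 2.12, by a test of that difference chosen after seeing the data. It was not called without WT hippocampus replicate 2 (1.66, edgeR adjusted p 0.0242), with classes of single cells (1.73, 0.0688), without the block (2.097, 0.713) or with the largest clusters (−0.05, 0.99), and edgeR adjusted p ranged from 1.06e-11 to 0.99 over the alternatives. Over the WT replicates, Cdh12 differed between hippocampus and cortex by a mean log2 of −1.05 in SST cells and 0.805 in PVALB cells, and by −0.527 in NGFC cells, with every replicate of a class on its side; the test of NGFC against PVALB gave an edgeR adjusted p of 0.148. Cdh8 differed by 0.891 in SST and −0.52 in NGFC cells (edgeR adjusted p of the difference 0.0465). Cdh11 differed by 0.468 in SST and −1.03 in PVALB cells (edgeR adjusted p 0.0197). The PVALB value of Cdh11 was −1.485 in replicate 1, where the hippocampus level was 2.92 CPM, and −0.024 and −1.574 in the others. Cdh13 differed by −0.417 in SST and 0.841 in NGFC cells (edgeR adjusted p 0.591). The NGFC value of Cdh13 was 1.81 in replicate 1, where the cortex level of 3.28 CPM was 1 UMI, and 0.51 and 0.20 in the others.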

How the results depend on the processing

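Tests were rerun with an adjusted p threshold of 0.05, DESeq2, library-size scaling, no low-count filter, the replicate block or its absence, sums of at least 20 cells and each library left out, and the tests of classes, not those within clusters, also with other cell classes and filters; variants by largest cluster, without the shallowest or the Chodl-led SST cluster, the class by region test and the tests within clusters were added after seeing the data. Of the log2 values of called members, 151 stayed called and 18 did not with a library left out, and under the other alternatives 285 stayed, 21 did not and 2 changed sign. The sign changes were Cdh2 between PVALB and SST cells, 0.041 with classes of single cells, and Cdh12 in the PVALB minus SST difference by region, −0.052 with the largest clusters only. The cause was not tested.

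The number of members called by region in SST cells was 0, 2 with the replicate block and 1 with the block and the largest clusters; the block changed no other count of members by region in the classes. Between PVALB and SST cells it was 7, 3 without the replicate block, 4 with the largest clusters, 5 with classes of single cells and 6 with DESeq2, and between NGFC and PVALB cells 5, 3 without the block, 4 with the largest clusters and 4 with classes of single cells. Between NGFC and SST cells it was 6, and 7 with classes of single cells. With a library left out these counts were, in this order, 6 to 7, 4 to 5 and 6. For the PVALB minus SST difference by region it was 1, 4 at the threshold of 0.05, 3 without the filter, 0 without the block, 0 with classes of single cells, 3 with the largest clusters and 2 without the Chodl-led cluster. For NGFC minus SST by region it was 0, 2 at the threshold of 0.05, 1 with classes of single cells and 1 with the largest clusters. Within clusters 3, 7, 11 and 12 it was 2, 1, 2 and 1, and 0 in each with only WT libraries; without the filter it was 2 in cluster 7 and 3 in cluster 11. With a library left out it ranged from 0 to 2 in cluster 7, 1 to 2 in cluster 11 and 0 to 1 in cluster 12. Thinned to 1000 UMIs, Cdh7 in NGFC cells moved from 2.21 to 4.23 CPM and Cdh10 from 12.6 to 8.45 CPM.

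Counts over all genes moved more. By region they were 5, 2 and 0 in SST, PVALB and NGFC cells, 140, 24 and 4 with DESeq2, 32, 8 and 1 at the threshold of 0.05, 157, 77 and 35 without the filter, and 361, 70 and 10 with the block. Between classes they were 2316, 2442 and 2404 for PVALB minus SST, NGFC minus SST and NGFC minus PVALB, 487, 907 and 780 without the block, and 1346 and 1556 for the former pair with the largest clusters. By class and region they were 85, 88 and 22, 194, 216 and 59 at the threshold of 0.05, 231, 267 and 117 without the filter, 0, 0 and 2 without the block, and the last was 41 with DESeq2. By genotype they were 0 to 1, 1 to 16 with DESeq2 and 16 to 55 without the filter. Within clusters 3, 7, 11 and 12 they were 221, 43, 62 and 3, 353, 111, 133 and 16 with DESeq2, and 46, 2, 0 and 1 with only WT libraries.

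Few libraries per group, uneven cells, the shallow WT hippocampus replicate 2 and levels near a few UMIs per library limit what these tests can call, and a value that was not called is not shown to be equal.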
